A study of Mus musculus with 6 samples.

Results

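The genes described here are 45 genes of DNA replication and of the step from G1 into S phase, taken by name from a table of 38216 gene symbols. They were grouped by role into origin licensing (10 genes), helicase activation (4), polymerases, clamp and clamp loader (10), lagging strand (2), nucleotide supply (5), chromatin assembly and histone messenger RNA (3), G1/S activators (9) and G1/S brakes (2). All 45 passed the filter on low values (at least 1 TPM in at least 2 of 6 libraries) and were among the 13311 genes tested. RNA was measured in CD4+ T cells sorted by flow cytometry from spleens of C57BL/6 mice that carried the IL21-VFP reporter, at postnatal day 28. The mice are called naive in the series' design text, so no pool had a stated treatment. The pool called N was VFP-ICOS-, the pool called ACT was VFP-ICOS+ and the pool called ACT IL21 was VFP+ICOS+, with 2 libraries each. VFP reports Il21, the gene of a cytokine of follicular helper T cells, and ICOS is a costimulatory receptor of activated T cells. All 3 pools share the CD4 gate, the strain and the reporter, and the labels do not say how many animals a pool came from or whether its libraries came from separate animals. P-values thus reflect how far these libraries vary, and that variation may be technical.

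A cell enters S phase when D-type cyclins with the kinases Cdk4 and Cdk6, and then E-type cyclins with Cdk2, phosphorylate the retinoblastoma protein and free the E2F transcription factors. E2F factors raise the genes of the replication machinery: the origin recognition complex with Cdc6 and Cdt1 loads the Mcm2 to Mcm7 helicase, Cdc45 and the GINS complex switch it on, and polymerases held by the sliding clamp Pcna copy the strands. Resting T cells stay outside the cycle with low amounts of these messages and raise them after antigen stimulation.

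Levels are TPM, a transcript's share of its library corrected for transcript length, so levels of different genes can be set side by side. A fold change is a difference of log2(TPM + 1), which understates the change of low genes, and a gene is called when its limma p-value adjusted over all genes tested is under 0.05. TPM keeps no record of read number, so the depth is unknown. Each library had 12095 to 12396 genes at 1 TPM or more, and 42 to 45 of the 45 genes reached that level. Libraries of one pool resembled each other (Spearman correlation across genes 0.941 to 0.971) more than libraries of different pools (0.904 to 0.931). T cell markers were high in every pool, with a summed level of 4800 to 5340 TPM in N, 5670 to 6880 in ACT and 7200 to 7390 in ACT IL21, and Cd8a was at no more than 0.36 TPM, while Cd8b1 was at 18.73 to 26.68 TPM in N 5.59 to 7.41 in ACT and 3.41 to 9.8 in ACT IL21. The sort was visible in Icos, at 31.92 to 35.67 TPM in N, 241.35 to 254.1 in ACT and 184.97 to 226.73 in ACT IL21, and in Il21, at 44.48 and 51.87 TPM in ACT IL21 and at most 1.26 elsewhere. Cd4, the shared gate's gene, was at 315.56 to 357.93 TPM in N, 236.07 to 267.6 in ACT and 533.54 to 566.54 in ACT IL21. By limma it was called higher in ACT IL21 against N (0.71, adjusted p = 0.0301) and against ACT (1.13, adjusted p = 0.0103). It was not called in ACT against N (-0.42, adjusted p = 0.158). Among the 8 T cell markers, only Cd247 passed in ACT against N, where it fell (-0.75, limma adjusted p = 0.0221), beside 1.43% of all genes. Only Cd28 passed in ACT IL21 against N (0.94, limma adjusted p = 0.00899), beside 3.82% called higher. Only Cd247 passed in ACT IL21 against ACT (0.94, limma adjusted p = 0.0205), beside 0.796% called higher. Both ACT IL21 libraries lay above both N libraries for all 8, beside 31.5% of all genes. Markers of other cells differed between the pools. The 12 natural killer and NKT markers summed to 56.6 to 62.4 TPM in N, 994 to 1120 in ACT and 180 to 223 in ACT IL21. Of these 9 were tested, and 6, Klrb1c, Klrk1, Xcl1, Zbtb16, Itga2 and Nkg7, rose in ACT against N, beside 4.15% of all genes. Ncr1 was at no more than 1.06 TPM and Klra8 at no more than 0.17. Nkg7, the most abundant, was at 8.9 and 8 TPM in N, 539.14 and 398.79 in ACT, and 164.5 and 108.7 in ACT IL21. In ACT IL21 against N, 2 of these markers rose, Klrb1c and Nkg7, and 1, Klrd1, fell (-1.8, limma adjusted p = 0.0198). All genes had 3.82% higher and 1.26% lower there. In ACT IL21 against ACT, 6 of the 9 were called lower, Klrb1c, Klrk1, Klrd1, Xcl1, Zbtb16 and Nkg7, and 0 higher. All genes had 1.15% lower and 0.796% higher in that comparison. Klrd1 was at 33.29 and 38.02 TPM in N, 88.49 and 85.89 in ACT, and 6.42 and 13.87 in ACT IL21. The 12 erythroid markers, led by Hbb-b1, summed to 115 to 306 TPM in N, 138 to 274 in ACT and 212 to 535 in ACT IL21, and their sum was higher in replicate 1 than in replicate 2 of every pool. The 8 B cell markers summed to 1.05 to 2.47, 4.22 to 5.88 and 14.3 to 19.9 TPM, led by Cd22, with Pax5 and Blk listed at 0. The 6 plasma cell markers summed to 79.7 to 99.2, 130 to 172 and 111 to 145 TPM, led by Xbp1, with Tnfrsf17 and Mzb1 listed at 0. Only 2 of them were tested, Xbp1 and Prdm1, and Sdc1 was at no more than 0.33 TPM. Prdm1 rose in ACT against N (2.19, limma adjusted p = 0.00333), beside 4.15% of all genes. It was lower in ACT IL21 than in ACT (-1.75, limma adjusted p = 0.0215), beside 1.15% of all genes. The 11 myeloid and dendritic markers summed to 29.9 to 34.2, 61.6 to 71.8 and 56.3 to 57 TPM, led by Cst3, with Siglech, S100a8 and S100a9 listed at 0. The part of these other cells in the results below was not tested, and in sorted pools fewer cycling cells and less RNA per cell cannot be told apart.

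Most replication and G1/S genes did not pass the test in any comparison, and the 7 that did were spread over the roles. In ACT against N, 3 of the 45 rose, Cdk6, Ccnd2 and Slbp, and none fell, against 4.15% of all genes tested higher and 1.43% lower (5.58% in either direction). By unadjusted limma p-values under 0.05, 11 of the 45 were higher and 1 was lower in that comparison, beside 11.6% and 6.99% of all genes (18.6% in either direction). In ACT IL21 against N, 5 of the 45 rose, Tyms, Cdk6, Rrm2, Lig1 and Mcm6, and none fell, against 3.82% of all genes higher and 1.26% lower (5.09% in either direction). Here 15 were higher and 0 lower at an unadjusted p under 0.05, beside 12.9% and 5.75% of all genes (18.7% in either direction). In ACT IL21 against ACT, Ccnd2 fell and no other member passed, against 0.796% of all genes higher and 1.15% lower (1.95% in either direction). There 4 members were higher and 1 lower at an unadjusted p under 0.05, beside 8.49% and 6.37% of all genes (14.9% in either direction). The F test over the 3 pools called 5 members, Tyms, Cdk6, Ccnd2, Rrm2 and Slbp, against 7.03% of all genes. Both comparisons with N use the same N libraries. The count of 3 in ACT against N became 0 without N replicate 1, N replicate 2, ACT IL21 replicate 1 or ACT IL21 replicate 2, and 1 without either ACT library. The count of 5 in ACT IL21 against N became 2 and 1 without N replicates 1 and 2, 1 and 0 without ACT IL21 replicates 1 and 2, and 7 without either ACT library.

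Libraries were also compared gene by gene without a threshold on p. Both ACT libraries lay above both N libraries for 21 of the 45 genes, and below them for 4, against 25.2% and 21.9% of all genes tested. Both ACT IL21 libraries lay above both N libraries for 28 of the 45 and below them for 2, against 31.5% and 19.9% of all genes. Between ACT IL21 and ACT the libraries did not overlap for 18 members that were higher in ACT IL21 and 6 that were lower, against 24.5% and 17.3%. The median log2 fold change of the 45 was 0.34 in ACT against N (0.02 over all genes tested), 0.47 in ACT IL21 against N (0.1) and 0.18 in ACT IL21 against ACT (0.08). Median-of-ratios scaling, which set the median of all genes in ACT IL21 against N to 0, gave medians of 0.31, 0.39 and 0.12 for the 45. With at least 5 TPM required in 2 libraries, 38 of the 45 were left, with medians of 0.28, 0.28 and 0.19 beside 0.04, 0.11 and 0.07 over all genes then tested. For 9 members, Mcm6, Cdc6, Fen1, Lig1, Rrm1, Rrm2, Tyms, Cdk6 and E2f1, both N libraries lay below both ACT libraries, and these below both ACT IL21 libraries. No member had the reverse order. Over all genes tested, 3.88% had the rising order and 1.89% the falling one.

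**Figure D1:**
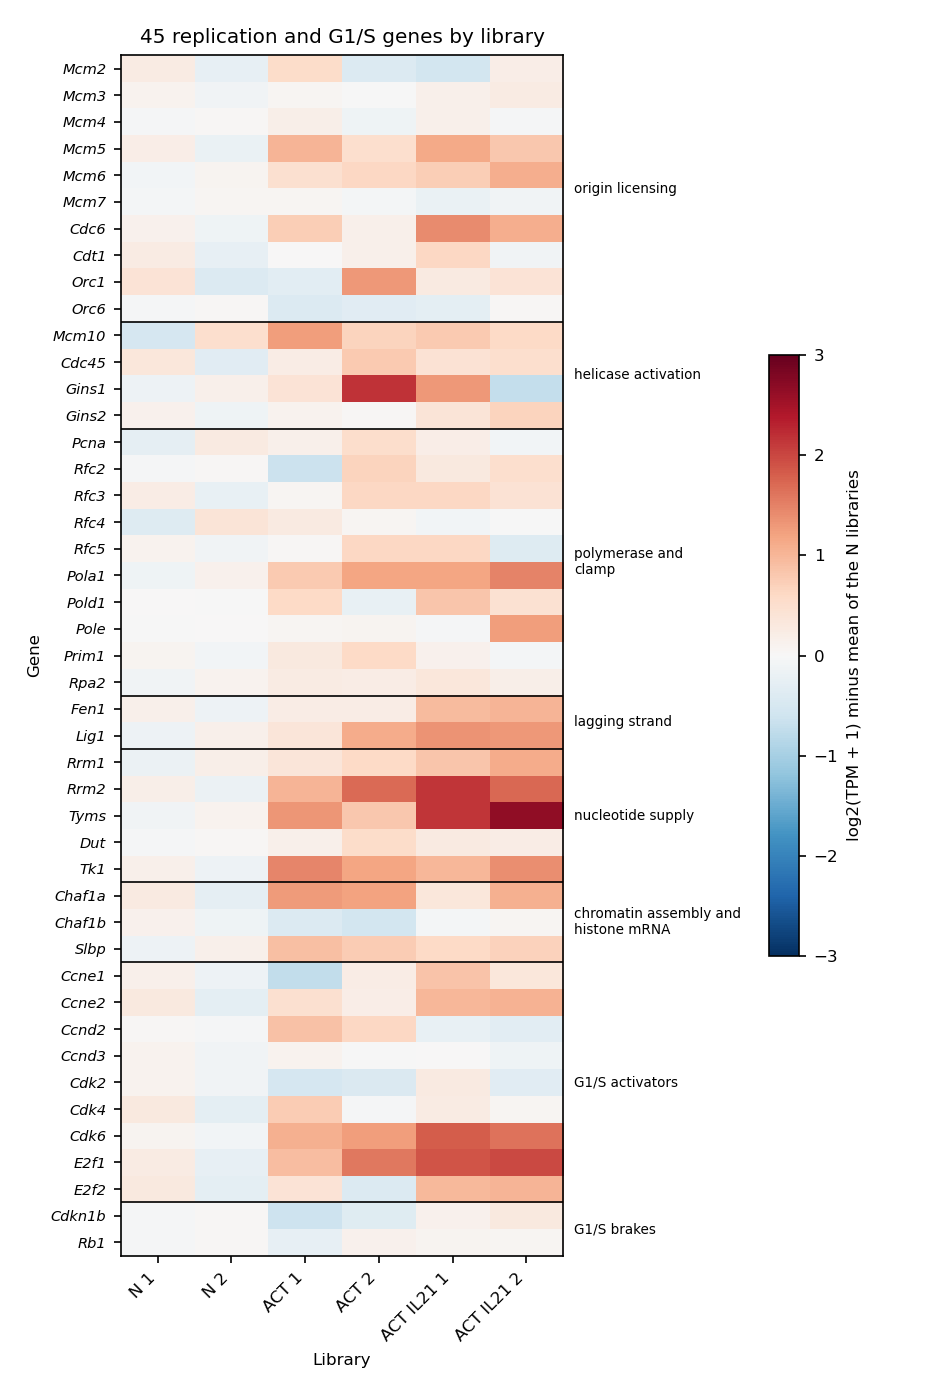
Each row is a gene, each column a library, and the colour is log2(TPM + 1) minus the mean of the 2 N libraries, with genes grouped by role. The strongest colours in both ACT IL21 libraries are those of Tyms, Rrm2, E2f1 and Cdk6, while Mcm3, Mcm4, Mcm7, Ccnd3 and Rb1 stay near 0 throughout, and Gins1 differs between libraries of one pool.

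Promoter windows from RefSeq (GRCm38.p6, 250 bases before to 50 after an annotated start) were matched by symbol for 37 of the 45 genes, as 43 windows. Ccnd2, Ccne2, Gins1, Gins2, Mcm4, Pole, Rb1 and Rfc2 were not matched. The windows were searched on both strands for the E2F consensus in its 4 spellings, TTTCCCGC, TTTCGCGC, TTTGCCGC and TTTGGCGC, which can overlap each other on opposite strands. A match stood in 13 of the 43 windows (30.2%), each of a different gene, against 744 of all 32851 windows (2.26%). The genes were Cdc6, Cdk2, Cdt1, E2f2, Lig1, Mcm3, Mcm5, Mcm6, Mcm7, Orc1, Pola1, Pold1 and Rfc3. Of the 6 called genes with a window, Lig1 and Mcm6 had one, and of the 31 others with a window, 11 did. For contrast, the CHR word TTTGAA, an element of genes of the later cell cycle, stood in 4 of the 43 windows (9.3%), in 11 of 16 windows of a list of G2/M and mitosis genes (68.8%), and in 17.9% of all windows. The 200 bases before the start are shown for Mcm6, which was called and held 3 matches, for Cdc6, Mcm5 and Pola1, which held 1 or 2 and were not called, and for Tyms and Rrm2, the members with the largest fold changes among those called, which held none. Capitals mark the E2F matches, read 5′ to 3′ on the strand of the gene, so that a match on the other strand appears as its reverse complement. The windows lie at chr1:128359706-128359905 (minus strand) for Mcm6, chr11:98907951-98908150 (plus) for Cdc6, chr8:75109309-75109508 (plus) for Mcm5, chrX:93632156-93632355 (minus) for Pola1, chr5:30073626-30073825 (minus) for Tyms and chr12:24708054-24708253 (plus) for Rrm2.
Mcm6: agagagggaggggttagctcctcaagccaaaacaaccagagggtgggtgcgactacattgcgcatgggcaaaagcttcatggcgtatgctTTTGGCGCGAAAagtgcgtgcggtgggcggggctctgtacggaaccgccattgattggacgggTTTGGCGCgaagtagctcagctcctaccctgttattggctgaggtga
Cdc6: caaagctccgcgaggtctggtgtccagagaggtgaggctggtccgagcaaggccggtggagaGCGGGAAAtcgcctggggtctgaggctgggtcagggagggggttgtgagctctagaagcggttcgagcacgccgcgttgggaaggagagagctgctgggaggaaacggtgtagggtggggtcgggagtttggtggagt
Mcm5: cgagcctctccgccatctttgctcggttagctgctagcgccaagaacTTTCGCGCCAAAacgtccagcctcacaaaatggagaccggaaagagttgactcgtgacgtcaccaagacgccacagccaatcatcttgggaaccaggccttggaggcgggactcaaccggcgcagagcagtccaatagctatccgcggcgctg
Pola1: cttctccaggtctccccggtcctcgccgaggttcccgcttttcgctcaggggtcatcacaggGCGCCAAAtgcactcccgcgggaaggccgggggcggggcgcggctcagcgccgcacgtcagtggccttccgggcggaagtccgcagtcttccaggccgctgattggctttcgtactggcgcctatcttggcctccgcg
Tyms: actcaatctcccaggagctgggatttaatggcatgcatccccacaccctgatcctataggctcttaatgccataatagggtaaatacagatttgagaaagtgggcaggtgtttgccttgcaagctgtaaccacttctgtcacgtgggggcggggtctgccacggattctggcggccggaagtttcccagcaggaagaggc
Rrm2: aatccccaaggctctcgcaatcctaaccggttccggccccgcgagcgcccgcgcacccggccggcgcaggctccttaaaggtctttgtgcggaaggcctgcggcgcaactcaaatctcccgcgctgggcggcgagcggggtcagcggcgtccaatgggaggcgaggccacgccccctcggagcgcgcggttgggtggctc
In Mcm6 and in Mcm5 a pair of matches on opposite strands overlaps in 1 run of capitals. No match says only that these letters are not in the window.

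**Figure D2:**
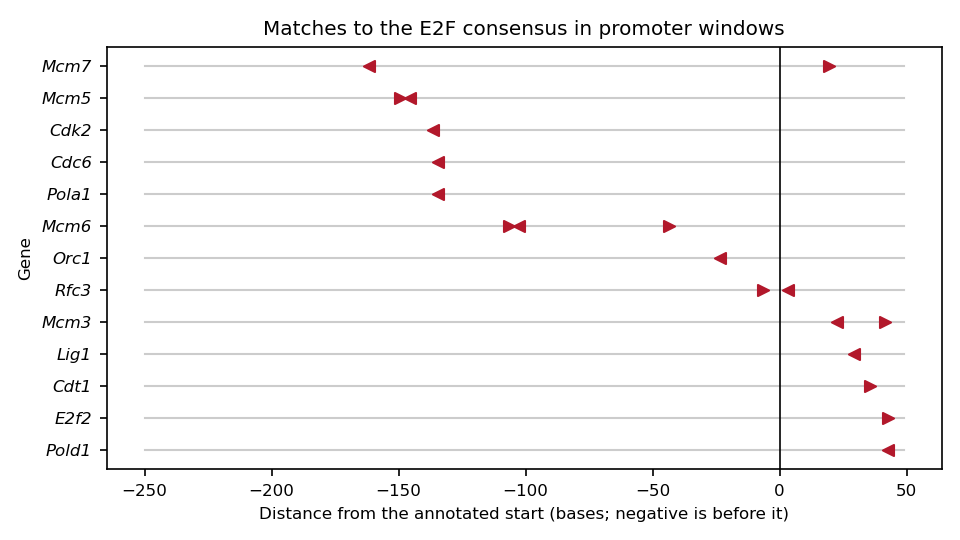
Each grey line is the promoter window of a gene with an E2F match, drawn as distance in bases from the annotated start, and each triangle is a match, pointing right on the strand of the gene and left on the other. Of 19 matches in 13 genes, 11 began before the start and 8 at or after it, and Mcm7, Mcm5, Mcm6, Rfc3 and Mcm3 have more than 1.

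Among the 10 origin licensing genes Mcm6 alone passed, in ACT IL21 against N, beside 3.82% of all genes called higher. At unadjusted limma p-values under 0.05 there were 1 in ACT against N and 3 in ACT IL21 against N, beside 18.6% and 18.7% of all genes. Mcm6 (chromosome 1, 128331590 to 128359664, minus strand, protein-coding, GRCm38) encodes a subunit of the replicative helicase. It was at 31.15 and 35.04 TPM in N, 46.73 and 51.2 in ACT, and 56.13 and 71.69 in ACT IL21. Its levels did not overlap between any 2 pools. With a log2 fold change of 0.92 ± 0.2 (SE, adjusted p = 0.0416) it rose in ACT IL21 against N, and its values were 0.55 in ACT against N (adjusted p = 0.186) and 0.37 in ACT IL21 against ACT (adjusted p = 0.447). The call ended with either N library or either ACT IL21 library left out, without a filter on low values, without the intensity trend and with both other scalings, at log2 fold changes of 0.75 to 1.09 and adjusted p up to 0.255.

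The other helicase subunits, which share the ring with Mcm6 in equal copies, had unequal messages. In N the mean level was 60.3 ± 1.54 TPM for Mcm4 (SD, n = 2), 36.7 ± 2.12 for Mcm7, 33.1 ± 2.75 for Mcm6, 19.8 ± 2.35 for Mcm3, 11.6 ± 3 for Mcm2 and 4.865 ± 1.17 for Mcm5. Mcm4 and Mcm7 were at levels like these in all pools, with log2 fold changes in ACT IL21 against N of 0.06 (95% interval -0.36 to 0.48) and -0.15 (-0.6 to 0.3). Mcm7 shares exon bases with Cops6 and Ap4m1 on the other strand. Of the 45 genes 21 share exon bases with another annotated gene, and no label or note states whether reads were counted by strand, so their values are uncertain to that extent. Mcm5 was at 5.69 and 4.04 TPM in N, 10.81 and 7.3 in ACT, and 11.73 and 9.11 in ACT IL21, above N in every library of the ICOS+ pools without passing (0.77, adjusted p = 0.335, and 0.97, adjusted p = 0.221). The 6 subunits summed to 166 TPM in both N libraries, 202 and 177 in ACT, and 196 and 211 in ACT IL21. The share of Mcm6 in that sum was 18.7% and 21.1% in N, 23.2% and 28.9% in ACT, and 28.6% and 34% in ACT IL21.

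Of the loading factors, Cdc6 and Orc1 were below every helicase subunit in the mean over N, while Cdt1 and Orc6 were above Mcm5. Cdc6, an ATPase that brings the helicase to origins, was at 1.76 and 1.33 TPM in N, 3.21 and 1.83 in ACT, and 5.82 and 4.41 in ACT IL21, in separate ranges but without a call (1.26 in ACT IL21 against N, adjusted p = 0.173). Cdt1, its partner in loading, ranged from 8.7 to 16.71 TPM over the 6 libraries with overlapping pools. Orc1, the large subunit of the origin recognition complex, was at 1.06 and 5.39 TPM in the ACT libraries, a spread wider than its range in the other pools. Orc6, another subunit, was at 12.34 and 12.84 TPM in N, 9.22 and 9.65 in ACT, and 10.06 and 12.94 in ACT IL21 (-0.38 in ACT against N, adjusted p = 0.583).

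None of the 4 helicase activation genes passed in any comparison by limma. None reached an unadjusted p under 0.05, beside 18.6%, 18.7% and 14.9% of all genes in the 3 comparisons. Mcm10, a scaffold for helicase activation, was at 0.73 and 2.43 TPM in N, 4.81 and 2.84 in ACT, and 3.23 and 2.68 in ACT IL21. Cdc45, part of the active helicase, lay between 1.46 and 4.38 TPM in all libraries. Gins1 and Gins2 encode subunits of the GINS complex. Gins1 was at 2.74 and 11.66 TPM in the ACT libraries and at 5.95 and 0.72 in ACT IL21, beside 1.53 and 2.11 in N, so its libraries differed widely within both ICOS+ pools. Gins2 was steadier, at 13.51 and 11.07 TPM in N, 13.31 and 12.5 in ACT, and 16.33 and 19.88 in ACT IL21 (0.52 in ACT IL21 against N, adjusted p = 0.387).

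No polymerase, clamp or clamp loader gene passed (of 10, 1 at an unadjusted p under 0.05 in each comparison with N and 0 in ACT IL21 against ACT, beside 18.6%, 18.7% and 14.9% of all genes), and the most abundant of all 45 messages, that of the clamp Pcna, was among them. Pcna was at 308.15 and 455.43 TPM in N, 415.97 and 538.69 in ACT, and 430.04 and 352.49 in ACT IL21, above 97.9% of the genes tested. Its pools overlapped, and the 95% interval of its log2 fold change was -0.18 to 0.85 in ACT against N and -0.46 to 0.57 in ACT IL21 against N. The table also lists the pseudogene Pcna-ps2 at 1.55 to 3.36 TPM, and RSEM's division of reads between the copies is an estimate. The clamp loader genes Rfc2, Rfc3, Rfc4 and Rfc5 lay between 7.33 and 25 TPM in every library and summed to 53.3 and 59 TPM in N, 54.4 and 78.5 in ACT, and 70.5 and 63.8 in ACT IL21.

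Pola1 came nearest to a call in this group. It encodes the catalytic subunit of the polymerase that starts new strands, and was at 5.98 and 7.48 TPM in N, 12.32 and 16.61 in ACT, and 16.49 and 20.45 in ACT IL21. Both ICOS+ pools lay above N and overlapped each other. The log2 fold changes were 0.99 ± 0.32 in ACT against N (adjusted p = 0.133) and 1.33 ± 0.32 in ACT IL21 against N (adjusted p = 0.0573), and the second passed with either ACT library left out, with the 4 libraries of those pools alone, with a filter of 5 TPM and with a replicate block. Prim1, the primase that works with Pola1, was at 13.88 and 12.2 TPM in N, 16.17 and 20.2 in ACT, and 14.37 and 12.51 in ACT IL21. Pold1 and Pole encode the main polymerases of the lagging and the leading strand. Pold1 ranged from 10.13 to 22.33 TPM, and Pole from 2.47 to 2.77 in 5 libraries with 7.44 in ACT IL21 replicate 2. Rpa2, a subunit of the protein that coats single-stranded DNA, was at 25.82 and 30.28 TPM in N and between 31.62 and 35.67 in the other 4 libraries (0.26 in ACT IL21 against N, adjusted p = 0.587).

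Lig1, which encodes the ligase that joins the fragments of the lagging strand, rose in ACT IL21 against N. It was the only call among the 2 lagging strand genes, beside 3.82% of all genes called higher. At an unadjusted limma p under 0.05 there were 1 in ACT against N and 2 in ACT IL21 against N, beside 18.6% and 18.7% of all genes. Lig1 (chromosome 7, 13277283 to 13311433, plus strand, protein-coding) was at 17.09 and 21.61 TPM in N, 25.03 and 42.77 in ACT, and 50.2 and 48.78 in ACT IL21. The pools did not overlap, and the ACT libraries were far apart. Lig1 shares 247 exon bases with Zswim9 on the other strand. The log2 fold change was 1.32 ± 0.29 (adjusted p = 0.0398) in ACT IL21 against N and 0.74 (adjusted p = 0.213) in ACT against N. The call ended with either N or either ACT IL21 library left out, without a filter, without the intensity trend and with median-of-ratios scaling (1.16 to 1.48, adjusted p up to 0.219). Fen1, the nuclease that trims the fragments before ligation, was at 3.68 and 2.78 TPM in N, 3.91 and 3.94 in ACT, and 7.16 and 7.54 in ACT IL21, again without overlap (0.99 in ACT IL21 against N, adjusted p = 0.215). Fen1 shares 1909 exon bases with the antisense gene Gm10143, listed at 0 to 2.15 TPM, so its reads are uncertain without a strand setting.

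The 5 nucleotide supply genes were higher in both ICOS+ pools than in N in every library, and 2 of them, Tyms and Rrm2, passed in ACT IL21 against N. Over all genes tested, 25.2% lay above both N libraries in ACT and 31.5% in ACT IL21, and 3.82% were called higher in ACT IL21 against N. None of the 5 passed in ACT against N by limma, with 3 at an unadjusted p under 0.05 beside 18.6% of all genes. The summed level of the 5 was 71 and 75.1 TPM in N, 117 and 132 in ACT, and 158 and 177 in ACT IL21. Tyms (chromosome 5, 30058202 to 30073617, minus strand, protein-coding) encodes thymidylate synthase, which makes the thymidine nucleotide of DNA. It was at 8.02 and 9.33 TPM in N, 23.27 and 15.99 in ACT, and 41.35 and 59.64 in ACT IL21. All 3 pools were apart, and the difference from N was the largest of the 45 genes in ACT IL21 (2.39 ± 0.3, adjusted p = 0.00461). In ACT against N the log2 fold change was 1.07 (adjusted p = 0.0889), and in ACT IL21 against ACT it was 1.32 (adjusted p = 0.0785). The call against N ended only without ACT IL21 replicate 2, among 14 alternatives (adjusted p = 0.0575).

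Ribonucleotide reductase, which turns ribonucleotides into deoxyribonucleotides, has a large subunit, Rrm1, and a small one, Rrm2, made mainly in S phase. Rrm2 (chromosome 12, 24708241 to 24714146, plus strand, protein-coding) was at 7.14 and 5.46 TPM in N, 13.8 and 22.6 in ACT, and 31.23 and 22.92 in ACT IL21. It rose in ACT IL21 against N (1.94 ± 0.34, adjusted p = 0.0186) and was at 1.37 ± 0.34 in ACT against N (adjusted p = 0.0639). The call ended with either N or either ACT IL21 library left out and without a filter (adjusted p up to 0.142), and the value in ACT against N passed without ACT replicate 1 (1.7, adjusted p = 0.0457). Rrm1 was at 12.01 and 15.78 TPM in N, 18.01 and 21.48 in ACT, and 25.29 and 31.02 in ACT IL21 (0.97 in ACT IL21 against N, adjusted p = 0.0937). The ratio of Rrm2 to Rrm1 was 0.595 and 0.346 in N, 0.766 and 1.05 in ACT, and 1.23 and 0.739 in ACT IL21, above N in all 4 libraries of the ICOS+ pools. Tk1, the thymidine kinase of the salvage route, was at 7.83 and 6.17 TPM in N, 21.08 and 16.99 in ACT, and 14.77 and 19.85 in ACT IL21. Both ICOS+ pools lay above N and overlapped each other, and the fold changes narrowly missed the threshold (1.32, adjusted p = 0.0513, in ACT and 1.19, adjusted p = 0.0795, in ACT IL21). Dut, which keeps uracil out of DNA, was at 36.04 and 38.41 TPM in N and between 41.3 and 55.02 in the other libraries (0.35 in ACT against N, adjusted p = 0.433).

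Slbp, which encodes the protein that binds the stem-loop of histone messenger RNA, rose in ACT against N. It was the only call among the 3 genes of its role, beside 4.15% of all genes called higher. At an unadjusted limma p under 0.05 there were 2 in ACT against N and 1 in ACT IL21 against N, beside 18.6% and 18.7% of all genes. Slbp (chromosome 5, 33634952 to 33652574, minus strand, protein-coding) was at 56.91 and 69.68 TPM in N, 117.87 and 107.25 in ACT, and 95.59 and 101.64 in ACT IL21. ACT was highest and did not overlap either pool (0.83 ± 0.17 against N, adjusted p = 0.0308), and ACT IL21 also lay above N without a call (0.64, adjusted p = 0.0825). The call was lost with any single library left out, without a filter, without the intensity trend and when only those 2 pools were fitted (0.68 to 0.97, adjusted p up to 0.23). Slbp shares 474 exon bases with Gm10459 on the other strand. The subunits of the chromatin assembly factor, Chaf1a and Chaf1b, did not pass. Chaf1a was at 0.43 and 0 TPM in N, 1.9 and 1.76 in ACT, and 0.52 and 1.49 in ACT IL21, and shares 4648 exon bases with Ubxn6 on the other strand. Chaf1b was at 17.11 and 14.29 TPM in N, 11.56 and 10.36 in ACT, and 14.88 and 16.37 in ACT IL21, lowest in ACT (-0.48 against N, adjusted p = 0.429).

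**Figure D3:**
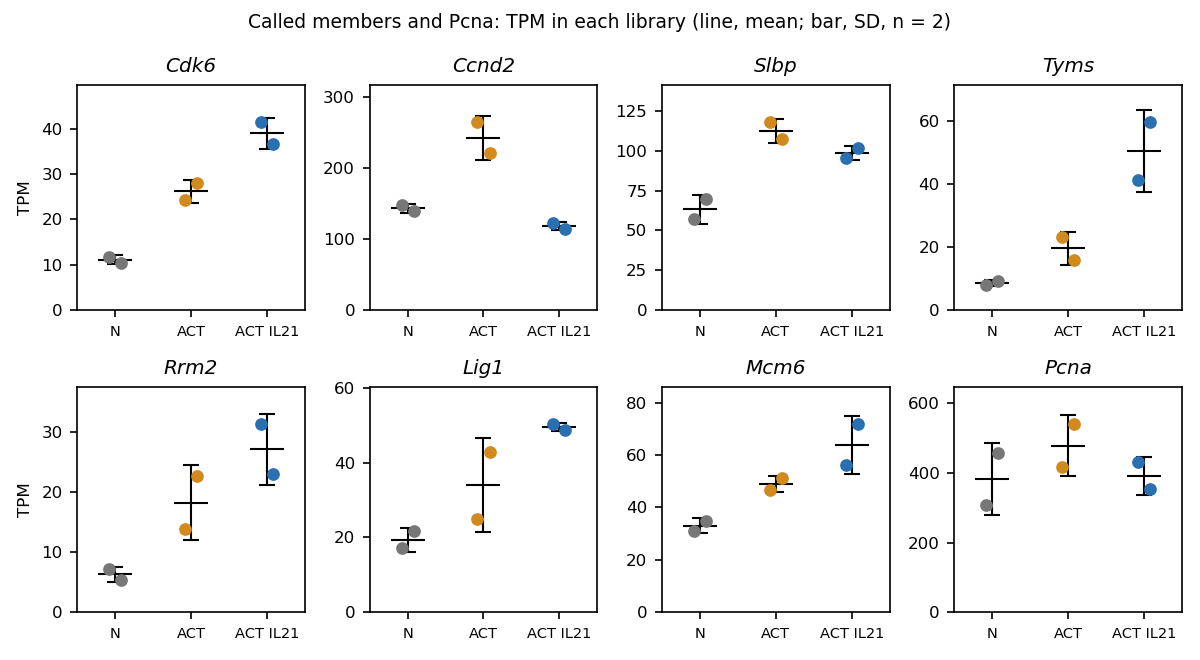
TPM of the 7 called genes and of Pcna in each library (points), with the mean (line) and SD (bar) of the 2 libraries of a pool. Cdk6, Tyms, Rrm2, Lig1 and Mcm6 climb from N through ACT to ACT IL21, Slbp is highest in ACT, Ccnd2 is higher in ACT than in both other pools, and the Pcna libraries overlap.

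Among the 9 G1/S activators the kinase gene Cdk6 and the cyclin gene Ccnd2 passed, with different patterns. In ACT against N 2 of the 9 rose, beside 4.15% of all genes, and in ACT IL21 against N 1 rose, beside 3.82%. In ACT IL21 against ACT 1 of the 9 fell, beside 1.15% of all genes. At an unadjusted limma p under 0.05 there were 3, 4 and 3 in these comparisons, beside 18.6%, 18.7% and 14.9% of all genes. Cdk6 (chromosome 5, 3341485 to 3531008, plus strand, protein-coding) encodes a kinase that D-type cyclins activate. It was at 11.82 and 10.43 TPM in N, 24.39 and 28.03 in ACT, and 41.48 and 36.57 in ACT IL21. It rose against N in ACT (1.17 ± 0.24, adjusted p = 0.0294) and in ACT IL21 (1.72 ± 0.24, adjusted p = 0.00636), and was the only member called in both. The value of ACT IL21 against ACT was 0.56 (adjusted p = 0.328). Cdk6 shares 368 exon bases with the antisense gene Gm17590, listed at 0 TPM in every library. With any single library left out the ACT call was lost (adjusted p up to 0.209), as it was without the intensity trend and when only those 2 pools were fitted. The ACT IL21 call was lost without N replicate 2 and without either ACT IL21 library (adjusted p up to 0.0725).

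Ccnd2 (chromosome 6, 127125162 to 127152193, minus strand, protein-coding) encodes a D-type cyclin that T cells raise after stimulation. It was at 147.59 and 138.82 TPM in N, 264.15 and 220.16 in ACT, and 122.56 and 114.33 in ACT IL21. ACT stood above both other pools, and ACT IL21 was the lowest. Ccnd2 rose in ACT against N (0.75 ± 0.15, adjusted p = 0.0302) and was lower in ACT IL21 than in ACT (-1.02 ± 0.15, adjusted p = 0.0188), while ACT IL21 against N gave -0.27 (adjusted p = 0.404). The first call was lost without N replicate 1, N replicate 2, ACT replicate 1 or either ACT IL21 library (adjusted p up to 0.206), without a filter, without the intensity trend and with the 2 pools alone. The second was lost without ACT replicate 1, either ACT IL21 library or the intensity trend (adjusted p up to 0.163). The annotation places the antisense genes Gm43126 and 9330179D12Rik over Ccnd2 exons, with unknown effect on its count. Ccnd3, the other D-type cyclin of T cells, was at 129.24 and 110.96 TPM in N, 129.3 and 118.61 in ACT, and 120.19 and 108.87 in ACT IL21, with an interval of -0.32 to 0.41 in ACT against N and -0.43 to 0.3 in ACT IL21 against N. Ccnd2 made up 53% and 55.3% of the summed D-type cyclin level in N, 67% and 64.9% in ACT, and 50.3% and 50.7% in ACT IL21.

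Cdk4, the other kinase of D-type cyclins, was higher in replicate 1 than in replicate 2 of each pool, at 87.87 and 57.44 TPM in N, 122.01 and 69.69 in ACT, and 85.08 and 74.34 in ACT IL21, and its pools overlapped. The share of Cdk6 in the sum of Cdk4 and Cdk6 was 11.9% and 15.4% in N, 16.7% and 28.7% in ACT, and 32.8% and 33% in ACT IL21. Cdk2, the partner of E-type cyclins, was at 13.67 and 11.88 TPM in N, 8.63 and 9.12 in ACT, and 15.63 and 9.84 in ACT IL21. The cyclins Ccne1 and Ccne2 were low, at 2.94 to 10.93 and 1.53 to 5.42 TPM, and both ACT IL21 libraries were above all others for each of them. E2f1, the E2F factor tied most closely to S phase entry, was at 0.57 and 0.11 TPM in N, 1.5 and 2.96 in ACT, and 3.89 and 4.22 in ACT IL21. These levels rise in order but are low, and the fold changes were 1.25 (adjusted p = 0.196) and 1.94 (adjusted p = 0.0597), the latter called without the intensity trend, with either ACT library left out and with the 2 pools alone. E2f2, a related activator, was at 18.28 and 11.65 TPM in N, 19.69 and 10.83 in ACT, and 29.79 and 30.8 in ACT IL21 (1 in ACT IL21 against N, adjusted p = 0.173, and 1 against ACT, adjusted p = 0.237).

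Neither brake passed. Cdkn1b encodes an inhibitor of cyclin-dependent kinases that holds resting T cells out of the cycle. It was at 129.15 and 137.2 TPM in N, 86.33 and 103.61 in ACT, and 145.99 and 163.91 in ACT IL21. ACT was lowest and ACT IL21 highest, with no overlap between any 2 pools (-0.49, adjusted p = 0.143, in ACT against N, and 0.7, adjusted p = 0.0787, in ACT IL21 against ACT). Rb1, the retinoblastoma gene, was at 90.71 and 96.46 TPM in N, 78.77 and 102.02 in ACT, and 99.39 and 97.21 in ACT IL21. Its 95% interval was -0.46 to 0.34 in ACT against N and -0.33 to 0.47 in ACT IL21 against N. Rb1 shares exon bases with Rcbtb2 and Lpar6 on the other strand. In ACT against N, Lpar6 was called higher (1.34, limma adjusted p = 0.00344) and Rcbtb2 was not called (1.06, adjusted p = 0.125). Whether their reads bear on the Rb1 values was not tested.

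**Figure D4:**
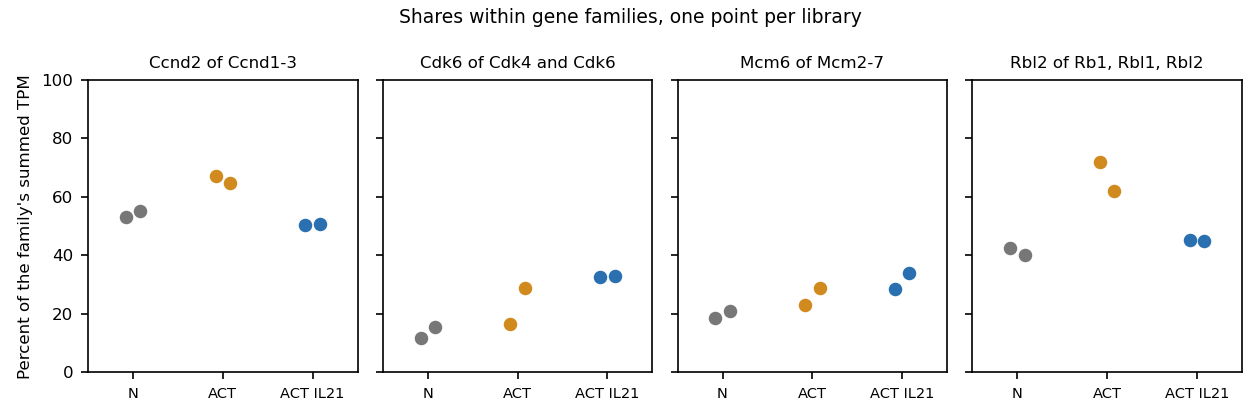
Percent of a family's summed TPM carried by 1 gene, with 1 point per library. The Ccnd2 share is highest in ACT, the Cdk6 share lowest in N and highest in ACT IL21, the Mcm6 share lowest in N, and the Rbl2 share at 72.1% and 61.9% in ACT against 40.2% to 45.3% in the other pools.

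Genes of the same pathway outside the 45 were counted from lists of other replication genes, other nucleotide supply genes and other G1/S regulators. Of 83 such genes 80 were tested. In ACT against N, 2 rose and 1 fell (3.75% of the 80, beside 5.58% of all genes), in ACT IL21 against N 2 rose and 0 fell (2.5%, beside 5.09%), and in ACT IL21 against ACT 0 rose and 1 fell (1.25%, beside 1.95%). At an unadjusted p under 0.05 there were 18, 17 and 15 in either direction, beside 18.6%, 18.7% and 14.9% of all genes. Their medians were 0.01, 0.21 and 0.19. The 14 other nucleotide supply genes among them had medians of -0.07, 0.01 and 0, and none of the 14 was called in any comparison. Rbl2, which encodes a pocket protein related to Rb1 that represses cell cycle genes in resting cells, was at 96.93 and 94.58 TPM in N, 271.7 and 235.81 in ACT, and 116.16 and 110.17 in ACT IL21. Like Ccnd2 it stood high in ACT (1.39 ± 0.15 against N, adjusted p = 0.00166) and lower in ACT IL21 than in ACT (-1.15 ± 0.15, adjusted p = 0.0105). The first of these Rbl2 calls held in all 14 alternatives, and the second was lost without either ACT IL21 library and without the intensity trend. Cdkn2c, an inhibitor of Cdk4 and Cdk6, was at 5.39 and 2.95 TPM in N, 18.63 and 22.03 in ACT, and 24.78 and 35 in ACT IL21, and rose in both comparisons with N (2.08 ± 0.35, adjusted p = 0.0132, and 2.6 ± 0.35, adjusted p = 0.00574). Its ACT call was lost without N replicate 2 and its ACT IL21 call without ACT IL21 replicate 2. Ccna2, the cyclin of S phase and later, rose in ACT IL21 against N (2.11 ± 0.37, adjusted p = 0.0172), a call lost with either N or either ACT IL21 library left out and without a filter. Mcmbp, a binding protein of the helicase, was at 105.81 and 108.2 TPM in N and 54.01 and 65.17 in ACT, and fell there (-0.84 ± 0.17, adjusted p = 0.0274), a call lost with any library but ACT replicate 2 left out, without the intensity trend and with those 2 pools alone. The F test called 5 of these genes (6.25% of the 80, beside 7.03% of all genes). Rpa1, the large subunit of the complex with Rpa2, passed the F test (adjusted p = 0.0481) at 106.24 and 77.84 TPM in N, 74.28 and 90.35 in ACT, and 169.26 and 148.67 in ACT IL21.

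Genes of G2 and mitosis are given beside these for scale. Of 20 such genes, all tested, 7 (35%) rose in ACT and 10 (50%) in ACT IL21 against N, beside 4.15% and 3.82% of all genes. None of the 20 fell there, and none passed between ACT IL21 and ACT (2 at an unadjusted p under 0.05, beside 14.9% of all genes). Their median log2 fold change was 1.67 in ACT against N and 2.31 in ACT IL21 against N, beside 0.34 and 0.47 for the 45 replication and G1/S genes. Top2a, the topoisomerase that untangles replicated chromosomes, was at 7.28 and 10.51 TPM in N, 37.8 and 37.44 in ACT, and 52.49 and 55.85 in ACT IL21. The count of 7 became 3 without either N library and 4 without ACT replicate 1. The count of 10 became 5 and 3 without N replicates 1 and 2, and 2 and 4 without ACT IL21 replicates 1 and 2. The difference between the lists was not tested.

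**Figure D5:**
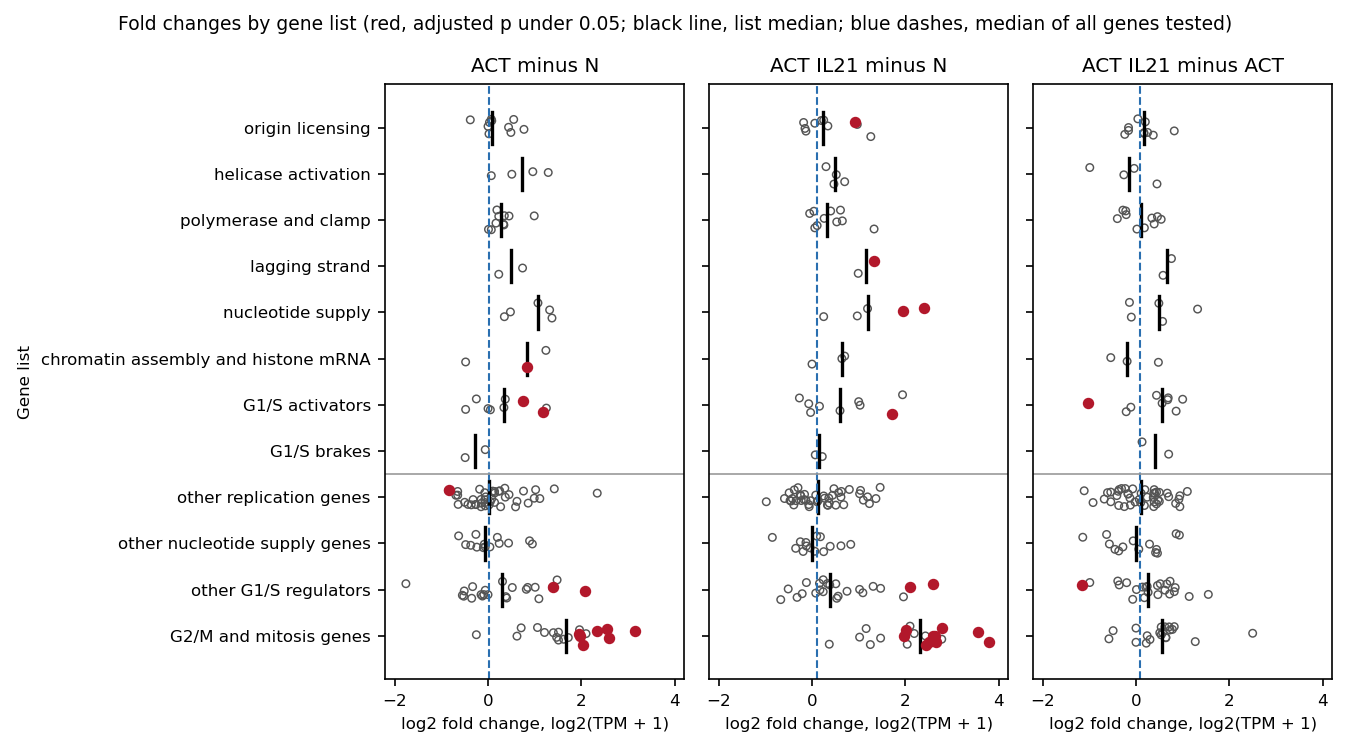
Each circle is a gene tested, placed by its log2 fold change on the log2(TPM + 1) scale in 1 of 3 comparisons, with red for an adjusted p under 0.05, a black line at the list's median and blue dashes at the median of all genes tested. The 8 roles of the 45 genes are above the grey line and the lists of other pathway genes below it. The 5 nucleotide supply genes have the highest median of the 8 roles in both comparisons with N (1.07 and 1.19). The 14 other nucleotide supply genes below the line have -0.07 and 0.01, and the G2 and mitosis list has 1.67 and 2.31.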

How the data were processed

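Gene-level TPM from 6 libraries were deposited by the authors as 1 table. The tools Trimmomatic, Bowtie and RSEM and the build GRCm38 come per the submitters' processing notes, which give no versions. RNA was extracted with RNeasy kits, and polyadenylated RNA was amplified with a NuGEN Ovation kit and sequenced on an Illumina MiSeq, per the labels' protocols and the series' design text. RSEM divides shared reads by estimation, so near-identical copies are uncertain, and amplification can add noise to low values. No label or note states the annotation release or the strand setting. Of 38355 entries, 139 repeated a symbol and were summed.

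Log2(TPM + 1) of 13311 genes was fitted with limma 3.58.1 in R 4.3.3 over all 6 libraries, with a term for the pool and an intensity trend (3 residual and 4.841 prior degrees of freedom, two-sided). P-values were adjusted by Benjamini-Hochberg over all genes in each comparison, with a threshold of 0.05. The fit was tested on simulated data. Coordinates come from GENCODE on GRCm38 and promoters from RefSeq. The 45 members and the lists were chosen with earlier results of these data known. Every member is described. Of the other pathway genes those past the threshold are named, and Top2a was chosen after its values were seen. Markers absent under their current symbol were read under an older one. Alternatives changed the pseudocount, filter, scaling, trend, libraries and replicate block.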

Additional observations from a re-analysis of the deposited data

How the results depend on the processing

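No called member changed direction under any of 14 alternatives. Without a filter on low values, the calls over all genes were 469 in ACT against N, 410 in ACT IL21 against N, 124 in ACT IL21 against ACT and 573 by the F test, and the members called were 1 and 2 in the comparisons with N and 3 by the F test. With only the 2 pools compared, 137 genes were called in ACT IL21 against ACT and 0 members in ACT against N. Without the intensity trend 0 members were called in ACT against N, 0 in ACT IL21 against ACT and 2 by the F test. Median-of-ratios scaling called 3 members in ACT IL21 against N. With 1 library left out at a time, its pool's other library being taken to vary like the rest, the calls ranged from 260 to 678 genes and 0 to 1 members in ACT against N, 169 to 903 genes and 0 to 7 members in ACT IL21 against N, 32 to 202 genes and 0 to 1 members in ACT IL21 against ACT, and 337 to 1036 genes and 1 to 5 members by the F test. A replicate block gave 784, 732, 284 and 974 genes and 3, 6, 1 and 5 members. The replicate numbers are not stated to pair libraries, and deviations of same-numbered libraries correlated across genes at 0.21 for N and ACT, -0.004 for N and ACT IL21 and 0.00078 for ACT and ACT IL21. The causes of these changes were not tested. With 2 libraries a pool and unknown depth, a member without a call is not shown to be equal between pools. The lists of other pathway genes were run through these alternatives after the data were seen.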
